A study of Mus musculus with 8 samples.

Results

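The Cyp2c cluster and Cyp3a11 are cytochrome P450 loci of the mouse liver, and the sites described here are all places where a peak of the transcription factor C/EBPα was called at either locus. The members were chosen by position alone, in mouse build mm9. The Cyp2c region runs over chr19:39120000-40280000, which is 1160 kb, with the Cyp2c29 start at about position 39361600 and Cyp2c70 at the distal end. The Cyp3a11 region runs over chr5:146600000-146760000, which is 160 kb, with the gene on the minus strand at about 146666000 to 146691500. Peaks of all 8 lists that overlapped were joined into sites. The Cyp2c region held 110 sites made from 423 peaks and the Cyp3a11 region held 25 sites made from 136 peaks, so 135 of 113353 sites in the series.

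The study measured where C/EBPα lies on chromatin, by chromatin immunoprecipitation and sequencing (ChIP-seq) of mouse liver with 1 antibody (sc-61). It has 4 groups of 2 libraries. Trib1_LSKO (liver-specific knockout) livers came from Trib1 flox/flox mice given 1.5e11 gc (genome copies) of the adeno-associated virus AAV_Cre. Trib1_WT livers came from Trib1 flox/flox mice given the same dose of AAV_Null. AAV_Cebpa livers came from wild-type C57B/6 mice given 1e12 gc of AAV_Cebpa, and AAV_Null livers from wild-type C57B/6 mice given 1e12 gc of AAV_Null. All mice were 8 to 10 weeks old, ate chow, received the virus by intraperitoneal injection and were fasted for 4 h, so the controls carry a virus too. The promoter that drives Cre or Cebpa in the vectors, the sex of the mice and the number of mice behind a library are not stated in the labels. Peak lists hold no expression, so neither the tissue label nor the loss of Trib1 or gain of C/EBPα was checked. In whole liver, binding in fewer cells and weaker binding per cell cannot be told apart.

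C/EBPα is a basic leucine zipper factor that hepatocytes use to switch on metabolic genes. Trib1 is a pseudokinase that brings C/EBPα to the ubiquitin ligase COP1 for degradation. The Cyp2c genes are tandem copies that encode haem monooxygenases of the endoplasmic reticulum. Cyp2c29, Cyp2c37, Cyp2c38, Cyp2c39, Cyp2c40, Cyp2c50 and Cyp2c54 oxidise drugs and polyunsaturated fatty acids such as arachidonic acid. Cyp2c70 belongs to bile acid metabolism, where it hydroxylates bile acids to the muricholic acids of mice. Cyp3a11 is a main Cyp3a enzyme of mouse liver, oxidises many drugs and steroids, and is a classical target of the pregnane X receptor.

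The RefSeq gene order of build GRCm38.p6 was taken by lowest coordinate. The members on chromosome 19 then stand as Cyp2c29, Cyp2c39, Cyp2c38, Cyp2c40, Cyp2c37, Cyp2c54, Cyp2c50 and Cyp2c70. The place of Cyp2c39 depends on which of its 2 annotated starts is used. Their promoters, at chr19:39347096-39347345 and chr19:39510572-39510821, lie on either side of the Cyp2c38 promoter at chr19:39463076-39463325. Cyp2c66 lies before them, Cyp2c67 and Cyp2c68 lie between Cyp2c38 and Cyp2c40, and Cyp2c69 follows Cyp2c40. On chromosome 5, Cyp3a44 and Cyp3a25 are the nearest protein-coding neighbours of Cyp3a11. The peaks are in mm9, and only Cyp2c29 and Cyp3a11 have mm9 positions here, so sites are given by distance from those starts and no site was assigned to another gene.

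RefSeq promoter sequence was matched for 8 of the 9 members. Cyp2c54 was not matched, and Cyp2c39 has a pair of annotated starts, so 9 promoters were read. The 250 bases before the start are shown for 4 genes. Cyp2c29 and Cyp3a11 are the genes whose starts could be set against the mm9 peaks, and each had a C/EBPα site over it. The starts of the other members were not set against the peaks. Cyp2c37 and Cyp2c50 are the most alike pair, of which 1 holds the C/EBP core. The coordinates are those of GRCm38.p6: chr19:39286835-39287084 (plus strand) for Cyp2c29, chr5:145879855-145880104 (minus strand) for Cyp3a11, chr19:39992174-39992423 (plus strand) for Cyp2c37 and chr19:40089429-40089678 (plus strand) for Cyp2c50. Capitals mark a C/EBP core in Cyp2c37 and an HNF4-type match in Cyp3a11.
Cyp2c29: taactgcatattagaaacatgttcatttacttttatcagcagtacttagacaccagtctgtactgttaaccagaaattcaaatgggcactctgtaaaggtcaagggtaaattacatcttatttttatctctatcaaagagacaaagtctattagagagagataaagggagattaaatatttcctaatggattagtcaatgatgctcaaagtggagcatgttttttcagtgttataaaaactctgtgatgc
Cyp3a11: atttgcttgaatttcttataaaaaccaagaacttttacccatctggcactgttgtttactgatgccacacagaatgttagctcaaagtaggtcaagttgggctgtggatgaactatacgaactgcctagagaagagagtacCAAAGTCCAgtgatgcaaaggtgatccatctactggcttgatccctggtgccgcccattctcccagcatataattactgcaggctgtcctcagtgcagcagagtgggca
Cyp2c37: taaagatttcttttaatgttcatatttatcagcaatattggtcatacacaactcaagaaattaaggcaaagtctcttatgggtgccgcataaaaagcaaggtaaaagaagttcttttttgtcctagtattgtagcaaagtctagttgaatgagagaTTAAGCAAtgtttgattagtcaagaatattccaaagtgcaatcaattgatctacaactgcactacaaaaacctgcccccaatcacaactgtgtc
Cyp2c50: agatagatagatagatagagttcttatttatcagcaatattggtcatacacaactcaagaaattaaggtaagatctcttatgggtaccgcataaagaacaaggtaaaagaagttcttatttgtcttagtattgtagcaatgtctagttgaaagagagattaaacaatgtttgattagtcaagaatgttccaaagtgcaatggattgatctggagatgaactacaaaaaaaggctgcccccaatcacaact

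Both strands were searched for each motif in these 250-base windows. The C/EBP core TTGCNNAA was found in 1 of the 9 member promoters, in Cyp2c37, where TTAAGCAA on the plus strand starts at base -94 from the start. Of all 32851 mouse promoters in the table, 9.56% held it. The looser form TTNCNNAA, which contains the first motif, was found in 6 of 9 promoters, which belong to 5 genes, against 36.9% of all promoters. CAAAGTCCA, a site type bound by the liver nuclear receptor HNF4α, was found in 3 of 9, beginning at base -45 in Cyp2c40, -64 in Cyp2c70 and -109 in Cyp3a11, against 0.384% of all promoters. The TATA box TATAAA was found in 4 of 9, against 12.4% of all. These matches describe letters in a window and are not binding sites.

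Most Cyp2c promoters were little more alike in pairs than Cyp3a11 was to them, and a few pairs were close. Over the 28 pairs of Cyp2c promoters, identity ranged from 49.6% to 84.3% with a median of 54.8%, and Cyp2c37 with Cyp2c50 was the highest. Cyp3a11 shared 48.2% to 52.0% with the Cyp2c promoters. How reads that match more than 1 copy were placed is not given in the sources used here, so a Cyp2c peak may hold reads that could belong to another copy.

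The lists held 50075 and 53072 peaks in Trib1_LSKO, 53327 and 54691 in Trib1_WT, 59564 and 80394 in AAV_Cebpa and 46348 and 49052 in AAV_Null (replicate 1, then replicate 2, here and in all lists of values). Relative depth, read from the step between signal values and set to 1 in the shallowest library, was 1.18 and 1.28 in Trib1_LSKO, 1.14 and 1.93 in Trib1_WT, 1.85 and 2.27 in AAV_Cebpa and 1 and 1.17 in AAV_Null. Both AAV_Cebpa libraries were deeper than both AAV_Null libraries, so depth and treatment cannot be told apart in that comparison. AAV_Cebpa replicate 2 stood apart with the longest list and the greatest depth. Labels do not say whether replicates were separate mice, so spreads may be technical.

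Both loci were dense in C/EBPα peaks. The Cyp2c region held 3.45 to 5.52 peaks per 100 kb over the 8 libraries, where the whole of chromosome 19 held 2.90 to 4.48 and the genome 1.81 to 3.13. In every library the region exceeded its chromosome and the genome. The Cyp3a11 region held 8.75 to 11.9 peaks per 100 kb, where chromosome 5 held 1.88 to 3.12. The Cyp3a11 sites stood a median of 3.73 kb apart and the Cyp2c sites 5.10 kb apart, with gaps of up to 26.0 kb and 66.2 kb.

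**Figure D1:**
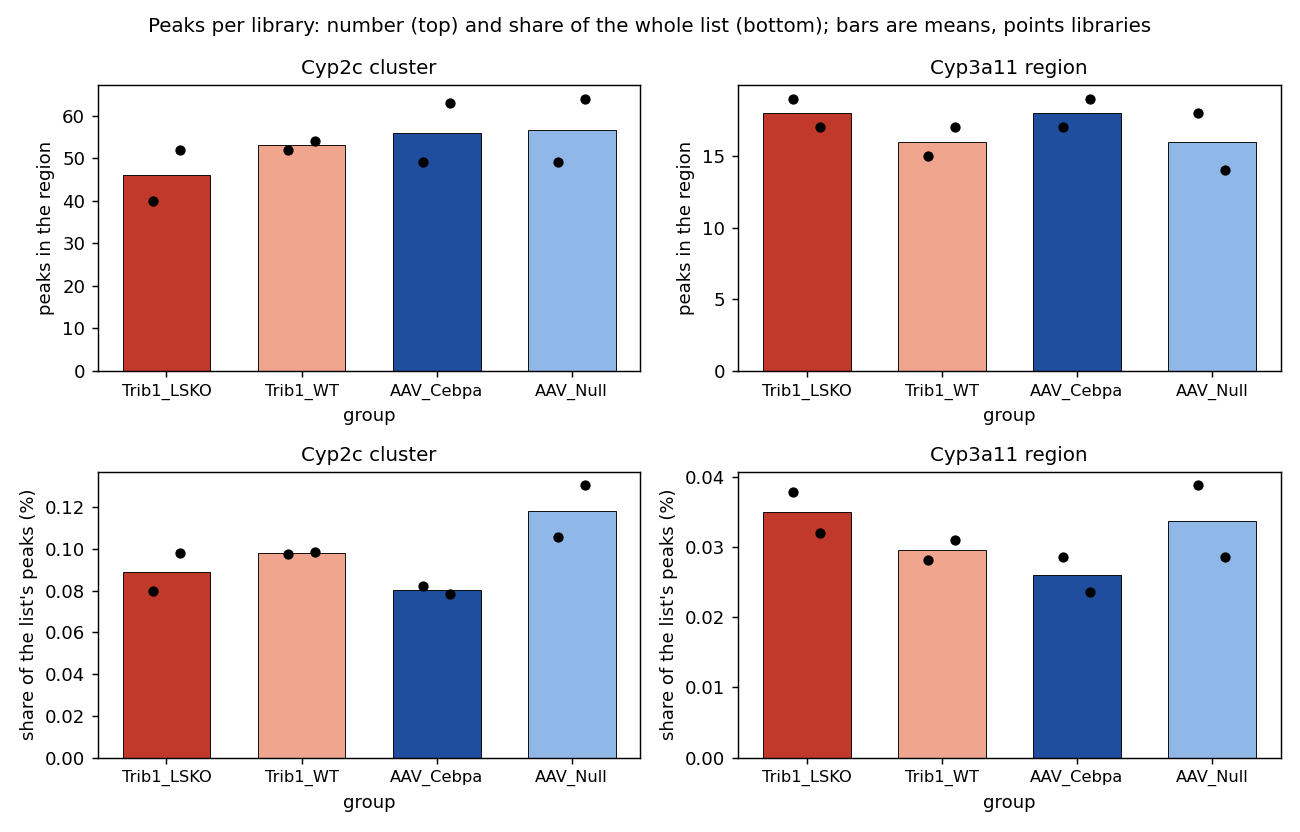
Number of C/EBPα peaks per library in each region (top row) and the share of the library's whole list that these peaks make (bottom row, percent), for the 4 groups. Points are libraries and bars are means of 2: Cyp2c peak numbers of AAV_Cebpa (49 and 63) and AAV_Null (49 and 64) nearly coincide, while both AAV_Cebpa shares lie below both AAV_Null shares.

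The Cyp2c region did not share in the longer AAV_Cebpa lists. It held 49 and 63 peaks in AAV_Cebpa and 49 and 64 in AAV_Null, means of 56 ± 9.90 and 56.5 ± 10.6 (SD, n = 2 each), a ratio of 0.991 (exact two-sided permutation p = 1). The whole lists averaged 69979 peaks in AAV_Cebpa and 47700 in AAV_Null, a ratio of 1.47. As a share of the list, the Cyp2c peaks made 0.0823% and 0.0784% in AAV_Cebpa and 0.106% and 0.130% in AAV_Null. The groups did not overlap, and p = 0.333 is the smallest the exact two-sided permutation test can give with 2 libraries against 2. No comparison of groups here can therefore pass the usual threshold. Cut to the same 46348 strongest peaks, the lists gave an AAV_Cebpa minus AAV_Null difference of -1.98 Cyp2c peaks per 100 kb (exact permutation p = 0.333).

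In the Trib1 experiment the Cyp2c region held 40 and 52 peaks in Trib1_LSKO and 52 and 54 in Trib1_WT, means of 46 ± 8.49 and 53 ± 1.41 (SD, n = 2 each; exact permutation p = 0.667). The groups met at 52, and the lower mean rested on Trib1_LSKO replicate 1. Without that library the difference in peaks per 100 kb was -0.0862, against -0.603 with it.

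The Cyp3a11 region held 19 and 17 peaks in Trib1_LSKO and 15 and 17 in Trib1_WT (exact permutation p = 0.667). It held 17 and 19 in AAV_Cebpa and 18 and 14 in AAV_Null (exact permutation p = 0.667). Neither pair of groups separated. As a share of the list the Cyp3a11 peaks made 0.0379% and 0.0320% in Trib1_LSKO and 0.0281% and 0.0311% in Trib1_WT (exact permutation p = 0.333), a difference that was 0 when all lists were cut to equal length. The shares were 0.0285% and 0.0236% in AAV_Cebpa and 0.0388% and 0.0285% in AAV_Null, which touch.

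Cyp3a11 sites recurred more often among the libraries than Cyp2c sites. Of the 25 Cyp3a11 sites, 10 (40%) were called in all 8 libraries, and of the 110 Cyp2c sites, 24 (21.8%), against 21.5% of all sites in the series. Sites called in 1 library were 5 (20%) at Cyp3a11 and 37 (33.6%) at Cyp2c, where the series had 27.1%. Of the 37, AAV_Cebpa replicate 2 gave 10, AAV_Null replicate 2 gave 8 and Trib1_LSKO replicate 1 gave 0. Of the 30747 such sites in the series, these libraries gave 14647, 3557 and 1298. The Jaccard index, sites shared by 2 lists over sites in either, was 0.704 within Trib1_LSKO, 0.767 within Trib1_WT and 0.625 to 0.704 between them at Cyp2c. It was 0.647 within AAV_Cebpa, 0.569 within AAV_Null and 0.400 to 0.477 between them, so every between-group pair of that experiment was less alike than both replicate pairs. The whole series had the same order, with 0.665 within AAV_Cebpa, 0.658 within AAV_Null and 0.381 to 0.427 between them. At Cyp3a11 it was 0.800 within AAV_Cebpa, 0.684 within AAV_Null and 0.609 to 0.750 between them, which overlap.

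**Figure D2:**
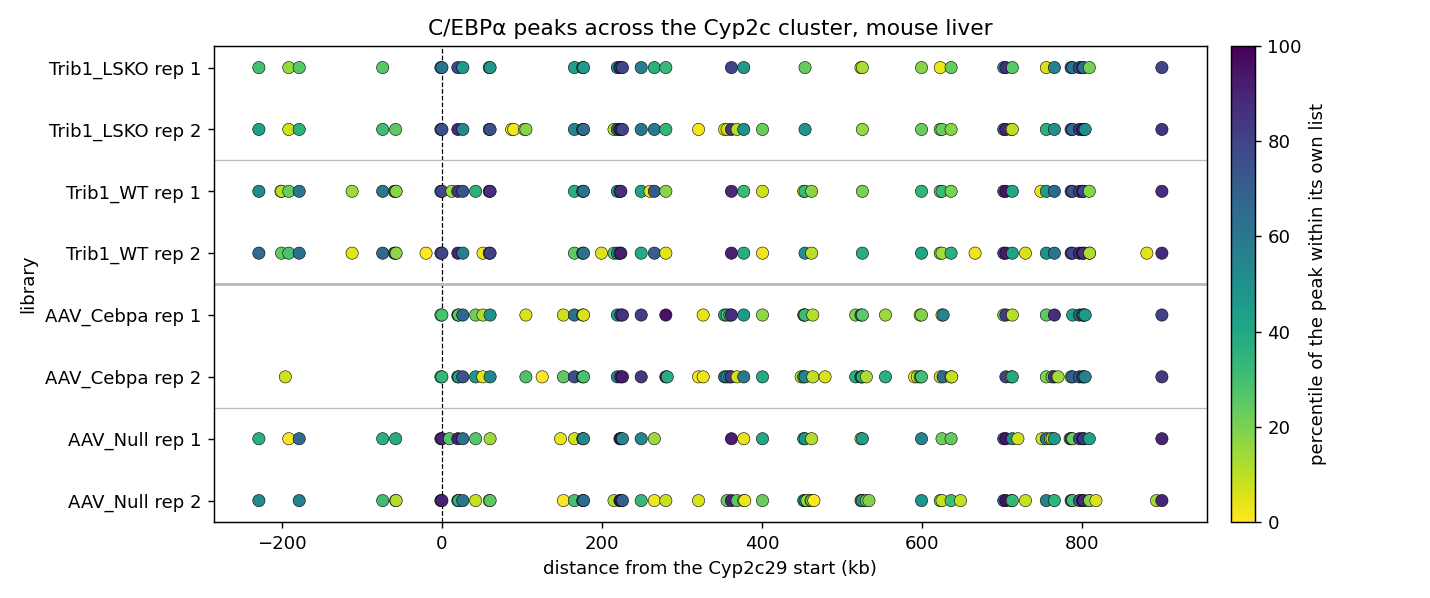
C/EBPα peaks across the Cyp2c region, 1 row per library, by distance from the Cyp2c29 start (kb, dashed line at 0). Colour gives the percentile of the peak within its own list (100 is the strongest). AAV_Cebpa rows are almost empty left of the start, with 2 and 3 sites, where AAV_Null rows have 7 and 7. That stretch was picked after its values were seen.

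The strength of a peak is given in 2 ways. The within-list percentile places the authors' signal value among all peaks of that library, with 100 for the strongest, and is given side by side because lists differ in length. The rank is the percentile among the 24318 sites called in all 8 libraries, which have the same denominator in every library. A rank is relative to other sites, so a lower rank does not mean less C/EBPα bound in absolute terms.

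A site lay over the Cyp2c29 start, at chr19:39361383-39361628, about -217 to +28 bp from the start, and was called in all 8 libraries. Its within-list percentile was 62.4 and 75.2 in Trib1_LSKO, 77.8 and 79.6 in Trib1_WT, 28.9 and 33.9 in AAV_Cebpa and 89.2 and 90.9 in AAV_Null. Its rank was 8.22 and 5.57 in AAV_Cebpa, against 79.9 and 82.0 in AAV_Null. The site thus stood near the bottom of the common sites in AAV_Cebpa livers and well up among them in AAV_Null livers, a difference of -74.1. In the Trib1 experiment the rank was 36.7 and 52.6 in Trib1_LSKO and 55.9 and 58.3 in Trib1_WT, a difference of -12.5. Neither pair of groups overlapped, at an exact permutation p of 0.333 each.

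The next site stood at -1.33 kb from the Cyp2c29 start, at chr19:39360149-39360385, and was called in all 8 libraries. It ranked 3.85 and 9.51 in AAV_Cebpa, against 67.4 and 68.4 in AAV_Null. Both AAV_Cebpa libraries were again far below both controls. In the Trib1 experiment it ranked 39.1 and 47.4 in Trib1_LSKO and 29.9 and 40.2 in Trib1_WT, which overlap. This site and others named for the size of their rank difference were chosen after their values were seen.

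Fewer sites were called upstream of Cyp2c29 in the treated groups of both experiments. The stretch between the region's limit and the gene start (241.6 kb) held 6 and 7 sites in Trib1_LSKO and 12 and 12 in Trib1_WT. It held 2 and 3 sites in AAV_Cebpa and 7 and 7 in AAV_Null. Without the last 2 kb, which hold both sites just described, the counts were 4 and 5 in Trib1_LSKO, 10 and 10 in Trib1_WT, 0 and 1 in AAV_Cebpa and 5 and 5 in AAV_Null. The groups did not overlap in either experiment. From 0 to +200 kb, Trib1_LSKO held 7 and 11 sites and Trib1_WT 9 and 9. AAV_Cebpa held 11 and 12 there and AAV_Null 9 and 10, which did not overlap and had the other order. From +400 to +600 kb, Trib1_LSKO held 4 and 4 and Trib1_WT 6 and 5, while AAV_Cebpa (11 and 16) and AAV_Null (7 and 13) overlapped. In the other segments, cut every 200 kb, the groups touched or overlapped. How often stretches elsewhere in the series separate was not counted, so the upstream separation is no result about that stretch. The upstream stretch was picked after its values were seen. Without the last 2 kb, none of its 12 sites was called in all 8 libraries.

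Of these 12 sites, 7 were weak, with mean percentiles of 0.603 to 17.7 over the libraries that called them, and 5 had means of 39.6 to 51.4. The 4 of these 5 lost in AAV_Cebpa are given here. The site at -178.55 kb (chr19:39182866-39183241) was absent from AAV_Cebpa and had percentiles of 66.7 and 55.9 in AAV_Null. In the other experiment it had 25.9 and 35.8 in Trib1_LSKO and 60.1 and 63.8 in Trib1_WT. The site at -228.97 kb was absent from AAV_Cebpa and had 36.4 and 52.9 in AAV_Null, with 30.2 and 43.6 in Trib1_LSKO and 52.2 and 65.3 in Trib1_WT. The site at -74.15 kb was absent from AAV_Cebpa and had 36.4 and 31.3 in AAV_Null, with 25.9 and 30.5 in Trib1_LSKO and 60.1 and 66.8 in Trib1_WT. At all 3 the percentiles were lower in both Trib1_LSKO lists than in both Trib1_WT lists, which differ in length. The share of all sites with this order was not counted, so it is no result about these sites. The site at -57.91 kb was absent from AAV_Cebpa and had 38.4 and 25.4 in AAV_Null. It was absent from Trib1_LSKO replicate 1, had 24.9 in replicate 2, and had 42.0 and 67.3 in Trib1_WT.

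Gained and lost sites are those called in both libraries of a treated group and in neither control library, or the reverse. Among sites called in any of the 4 libraries compared, Trib1_LSKO against Trib1_WT gained 1 of 72 Cyp2c sites (1.39%) and 2 of 21 Cyp3a11 sites (9.52%), where 4.74% of all sites were gained. It lost 5 of 72 (6.94%) and 1 of 21 (4.76%), where 4.86% of all sites were lost. AAV_Cebpa against AAV_Null gained 11 of 96 Cyp2c sites (11.5%) and 2 of 23 Cyp3a11 sites (8.70%), where 22.1% of all sites were gained. It lost 8 of 96 (8.33%) and 0 of 23, where 6.03% of all sites were lost. The gained shares of both loci were below the series' share in the AAV experiment, but that of Cyp3a11 rests on 2 sites. The lost shares and those of the Trib1 experiment rest on 8 sites or fewer. Cut to equal length, the AAV lists gave 5 gained and 17 lost Cyp2c sites, so the balance of the direction depends on list length. Single libraries also set these counts, since leaving one out asks for agreement of fewer libraries. The Cyp2c sites gained were 21 without AAV_Cebpa replicate 1 and 11 in Trib1_LSKO without Trib1_LSKO replicate 1. The Cyp2c sites lost were 21 without AAV_Null replicate 1 and 15 without AAV_Null replicate 2. In Trib1_LSKO they were 12 without Trib1_WT replicate 1, 11 without Trib1_WT replicate 2 and 8 without Trib1_LSKO replicate 2. The counts with equal lengths or without a library have no share of all sites beside them. They are therefore no result about the locus.

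The 1 Cyp2c site gained in Trib1_LSKO stood 225.70 kb past the Cyp2c29 start (chr19:39587156-39587441). Its percentile was 78.9 and 79.5 in Trib1_LSKO, and neither Trib1_WT library called it. In the AAV experiment all 4 libraries called it, at 85.8 and 92.0 in AAV_Cebpa and 54.5 and 70.0 in AAV_Null. It is the last of 4 neighbouring sites, a group picked after its values were seen. The first, at +219.34 kb, was gained in AAV_Cebpa (43.7 and 55.6). The next, at +222.60 kb, was lost, being absent from AAV_Cebpa and at 71.7 and 78.6 in AAV_Null. The third, at +223.67 kb, was called in all 8 libraries and was one of the strongest of the region, at percentiles of 82.0 to 94.7.

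The 5 Cyp2c sites lost in Trib1_LSKO were weaker. The strongest stood at -59.58 kb, absent from Trib1_LSKO and at percentiles of 36.6 and 55.4 in Trib1_WT. The other 4 stood at -200.61, -112.39, -57.30 and +462.25 kb, with percentiles of 4.10 to 24.4 in Trib1_WT. The site at +462.25 kb was lost in both experiments, with 11.5 and 23.4 in AAV_Null, and 4 of the 5 lay upstream of Cyp2c29.

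The 11 Cyp2c sites gained in AAV_Cebpa lay at +104.97 kb and beyond, and none lay upstream of Cyp2c29. The strongest stood at +626.73 kb (chr19:39988226-39988429), with percentiles of 55.3 and 64.6 in AAV_Cebpa and no call in any other library. The site at +804.32 kb had 46.1 and 55.6 in AAV_Cebpa and was also called in Trib1_LSKO replicate 2, at 51.5. A pair at +353.44 and +360.01 kb had 42.5 and 67.7, and 33.3 and 53.2, in AAV_Cebpa. The other gained sites were at percentiles of 55.6 or below in AAV_Cebpa. Of the 8 lost sites, 4 lay upstream of Cyp2c29 and the strongest was the one at +222.60 kb. The lost site at +265.60 kb, absent from AAV_Cebpa, had 15.0 and 2.54 in AAV_Null, but 36.5 and 59.0 in Trib1_LSKO and 72.6 and 70.2 in Trib1_WT.

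The 5 strongest Cyp2c sites called in all libraries lay across the cluster. The first, at +705.22 kb (chr19:40066716-40066931), ranked 76.2 and 77.9 in Trib1_LSKO and 89.2 and 85.6 in Trib1_WT. It ranked 65.8 and 54.4 in AAV_Cebpa and 89.99 and 90.9 in AAV_Null. In both experiments the treated libraries lay below both controls. The site at +362.02 kb ranked 62.6 and 70.5 in Trib1_LSKO and 76.8 and 80.8 in Trib1_WT, and 72.3 and 58.1 in AAV_Cebpa and 85.8 and 81.1 in AAV_Null, the same order. The site at +900.30 kb (chr19:40261763-40262037), at the distal end of the region where Cyp2c70 lies, ranked 61.8 and 69.8 in Trib1_LSKO and 73.4 and 75.3 in Trib1_WT, and 61.4 and 59.4 in AAV_Cebpa and 81.0 and 79.0 in AAV_Null. It too was lower in every treated library.

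The other sites among the 5 separated less. The site at +223.67 kb ranked 70.2 and 79.7 in Trib1_LSKO and 72.9 and 83.6 in Trib1_WT, which overlap. It ranked 63.7 and 73.0 in AAV_Cebpa and 89.8 and 89.4 in AAV_Null. The site at +19.89 kb, downstream of the Cyp2c29 start, ranked 61.8 and 77.4 in Trib1_LSKO and 68.9 and 78.6 in Trib1_WT, and 63.7 and 54.0 in AAV_Cebpa and 84.4 and 62.6 in AAV_Null. It is the 1 Cyp2c site called in all 8 libraries whose groups overlapped in both experiments.

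Elsewhere in the cluster the AAV_Cebpa ranks moved both ways. At +801.43 kb (chr19:40162890-40163171) the rank was 12.2 and 16.5 in AAV_Cebpa, against 81.7 and 87.1 in AAV_Null, while it was 68.8 and 71.7 in Trib1_LSKO and 84.7 and 88.3 in Trib1_WT. At +765.86 kb (chr19:40127358-40127572) it was 72.3 and 67.2 in AAV_Cebpa, against 21.9 and 13.4 in AAV_Null. At +249.12 kb it was 63.7 and 58.5 in AAV_Cebpa, against 28.6 and 12.3 in AAV_Null, and also 31.6 and 32.6 in Trib1_LSKO, against 14.0 and 12.4 in Trib1_WT. Sites with opposite orders thus stood in the same cluster.

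Some sites, also chosen after their values were seen, were strong in AAV_Cebpa and weak in the rest. The site at +279.97 kb (chr19:39641444-39641699) had percentiles of 95.6 and 95.9 in AAV_Cebpa, was absent from AAV_Null replicate 1 and had 8.63 in replicate 2. In the Trib1 experiment it had 32.5 and 34.1 in Trib1_LSKO and 17.8 and 4.10 in Trib1_WT. It held the highest percentile of the region in both AAV_Cebpa lists. The site at +524.00 kb had 73.9 and 76.1 in AAV_Cebpa and 15.0 and 5.60 in AAV_Null.

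Over the 24 Cyp2c sites called in all 8 libraries, the mean rank was 31.1 and 32.5 in AAV_Cebpa, against 46.6 and 45.3 in AAV_Null. The difference was -14.2, larger than the spread between replicates (SD 1.01 and 0.917, n = 2 each), with an exact permutation p of 0.333. It was -8.77 with lists cut to equal length and -28.6 with the strongest 50% of each list, both below 0 (exact permutation p = 0.333 each). The median difference per site was -16.7, where over all 24318 sites it was -2.26. Ranks were lower in both AAV_Cebpa libraries at 16 of 24 sites (66.7%), where 41.1% of all sites were, and higher in both at 7 of 24 (29.2%), where 30.9% were. With equal lengths 17 Cyp2c sites were left, of which 9 were lower, and with the strongest 50% 7 were left, of which 6 were lower. The shares of all sites at these settings are not given. The share also went with the control rank, in a split added after the values were seen. Of the 11 Cyp2c sites with a mean rank of at least 50 in AAV_Null, 10 were lower in both AAV_Cebpa libraries, where 55.8% of all such sites were. Below 50, 6 of 13 Cyp2c sites (46.2%) were lower and 7 (53.9%) were higher, where 26.6% and 42.8% of all such sites were, and the median Cyp2c difference there was 4.90. These are descriptions beside the series and no test of the loci.

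In the Trib1 experiment the mean rank over the same 24 sites was 34.9 and 42.9 in Trib1_LSKO, against 43.5 and 45.9 in Trib1_WT, a difference of -5.79 (exact permutation p = 0.333). It rested mainly on Trib1_LSKO replicate 1, since it was -1.40 without that library and -9.69 without Trib1_LSKO replicate 2. It was -11.2 with the strongest 50% of each list (exact permutation p = 0.667). Ranks were lower in both Trib1_LSKO libraries at 13 of 24 sites (54.2%), where 31.1% of all sites were, and higher in both at 4 of 24 (16.7%), where 22.2% were. The largest difference downward stood at +60.17 kb, with 20.6 and 54.2 in Trib1_LSKO and 71.3 and 60.5 in Trib1_WT. At that site the AAV experiment had the other order, with 22.6 and 18.3 in AAV_Cebpa and 3.58 and 8.02 in AAV_Null. At 9 of 24 Cyp2c sites (37.5%) ranks were lower in the treated libraries of both experiments, where 18.3% of all sites were. At 3 (12.5%) they were higher in both, where 14.5% of all sites were. At 4 (16.7%) they were lower in Trib1_LSKO but higher in AAV_Cebpa, where 4.08% of all sites were.

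**Figure D3:**
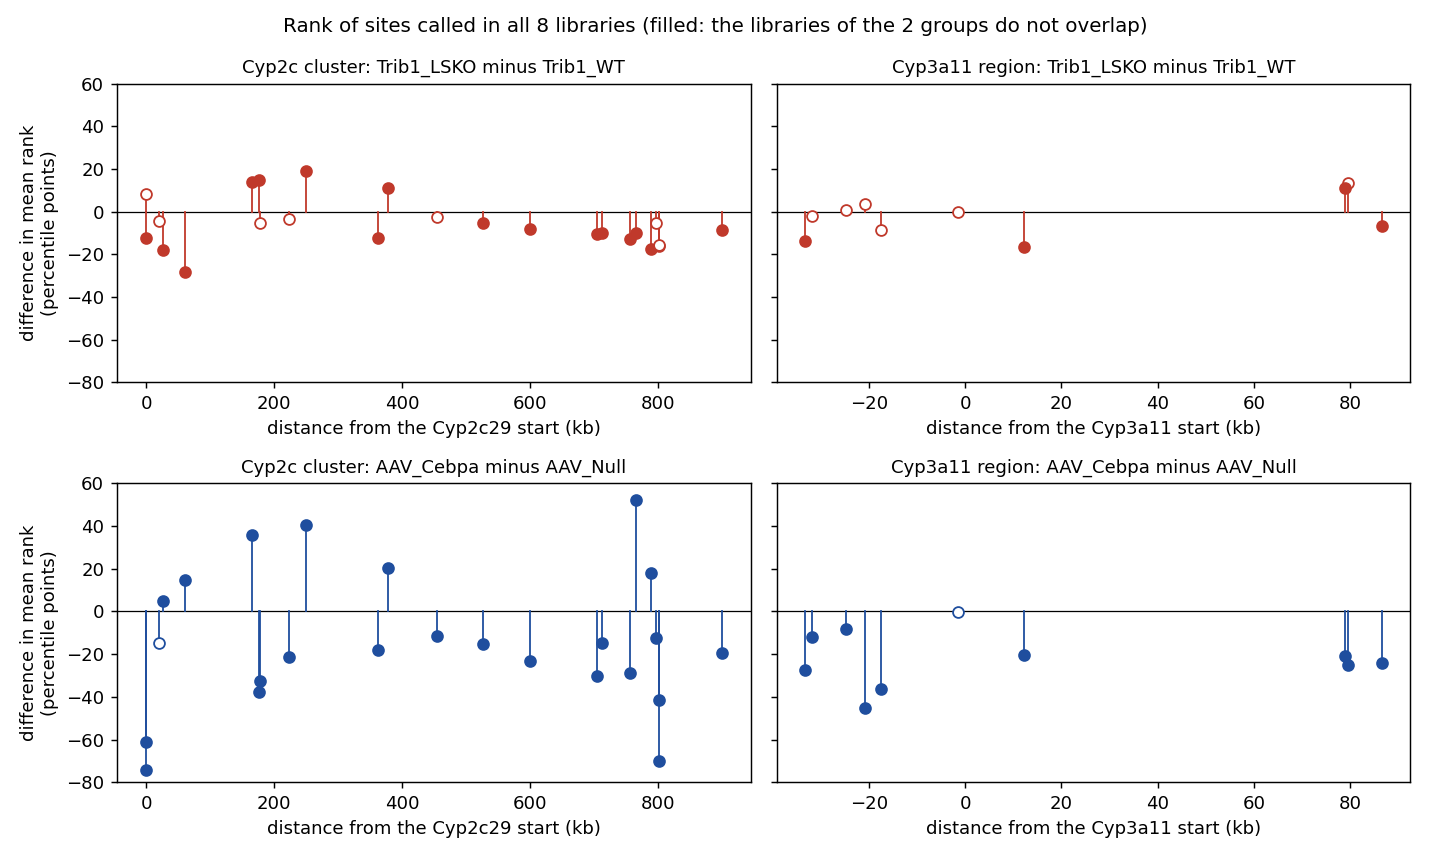
Difference in mean rank (treated minus control, percentile points) at each site called in all 8 libraries, by distance from the Cyp2c29 or Cyp3a11 start (kb). Top, Trib1_LSKO minus Trib1_WT. Bottom, AAV_Cebpa minus AAV_Null. Filled points are sites whose libraries do not overlap between groups: at Cyp3a11, 9 of 10 sites are filled and below 0 in the bottom row.

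**Figure D4:**
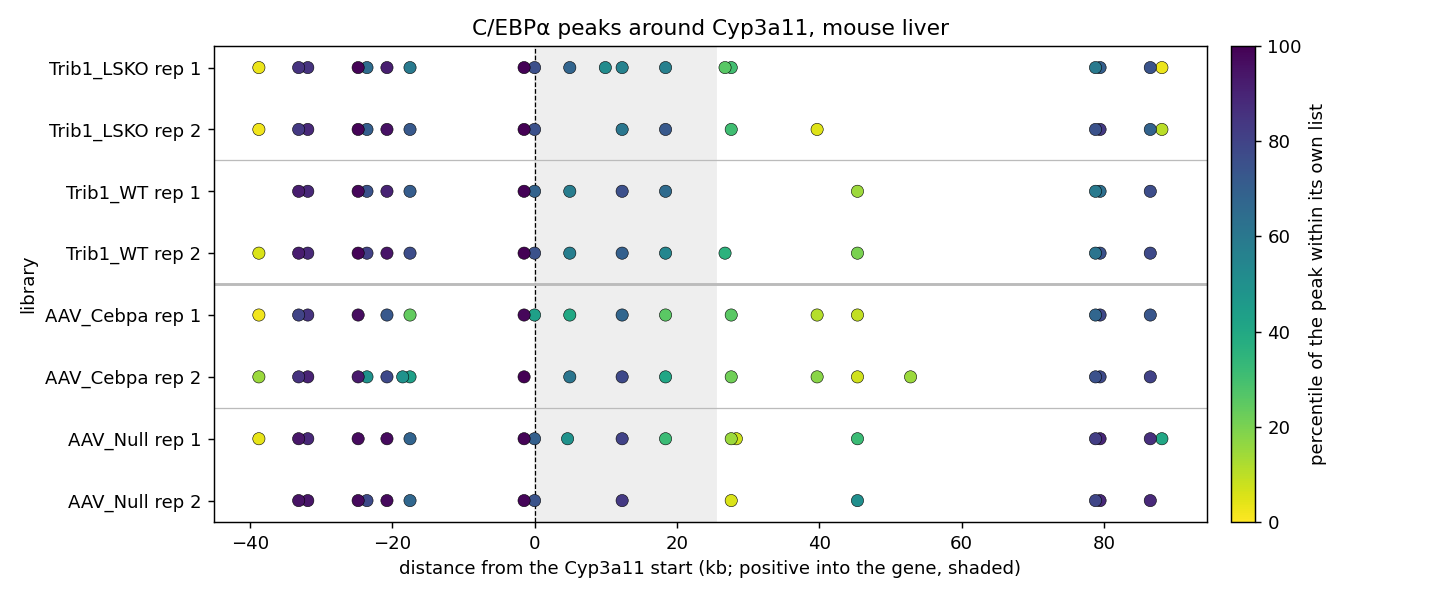
C/EBPα peaks around Cyp3a11, 1 row per library, by distance from the gene start (kb, positive into the gene, which is shaded). Colour gives the within-list percentile. The site at -1.49 kb is dark in all 8 rows, at 98.2 to 99.9.

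At Cyp3a11 the strongest site stood at -1.49 kb from the gene start, at chr5:146692869-146693105. Its within-list percentile was 99.3 and 99.7 in Trib1_LSKO, 99.3 and 99.9 in Trib1_WT, 98.2 and 99.8 in AAV_Cebpa and 99.1 and 98.8 in AAV_Null. It was thus among the strongest peaks of every library. Its ranks overlapped between groups in both experiments, and it was the 1 Cyp3a11 site called in all 8 libraries of which that held.

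A second site lay over the Cyp3a11 start itself, at chr5:146691404-146691636, about -136 to +96 bp, and is named because of its position. Its percentile was 75.6 and 75.2 in Trib1_LSKO, 68.6 and 74.9 in Trib1_WT, 43.7 in AAV_Cebpa replicate 1 and 69.7 and 74.6 in AAV_Null. AAV_Cebpa replicate 2, the deepest library, did not call it.

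The other strong Cyp3a11 sites lay in a run of upstream sites, between -33.17 and -17.52 kb. The site at -24.81 kb (chr5:146716187-146716426) ranked 97.7 and 97.9 in Trib1_LSKO and 96.3 and 97.9 in Trib1_WT, and 91.4 and 81.3 in AAV_Cebpa and 94.2 and 94.8 in AAV_Null. The site at -20.76 kb (chr5:146712144-146712372) ranked 83.9 and 90.6 in Trib1_LSKO and 79.8 and 87.6 in Trib1_WT, which overlap. It ranked 49.6 and 48.8 in AAV_Cebpa, against 94.2 and 94.8 in AAV_Null, the largest difference at this locus (-45.3). The site at -17.52 kb ranked 5.90 and 10.5 in AAV_Cebpa, against 46.1 and 42.7 in AAV_Null, and 33.0 and 48.2 in Trib1_LSKO and 44.9 and 53.6 in Trib1_WT. These 3 sites thus separated in the AAV experiment and not in the Trib1 experiment. Of all sites called in all 8 libraries, 41.1% were lower in both AAV_Cebpa libraries. In the AAV experiment, the run's site at -23.57 kb was called in replicate 2 of each group. The one at -18.55 kb was called in AAV_Cebpa replicate 2 alone.

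Of the run's outer sites, the one at -31.89 kb ranked 72.1 and 76.4 in Trib1_LSKO and 76.8 and 75.7 in Trib1_WT, and 69.8 and 74.7 in AAV_Cebpa and 79.5 and 89.2 in AAV_Null. The one at -33.17 kb ranked 72.1 and 66.7 in Trib1_LSKO and 83.3 and 82.8 in Trib1_WT, and 60.2 and 63.5 in AAV_Cebpa and 88.7 and 90.1 in AAV_Null. The site at -33.17 kb was lower in both libraries of each treated group.

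Inside the gene, 5 sites were called. The site at +12.29 kb was called in all 8 libraries and ranked 28.96 and 32.6 in Trib1_LSKO and 52.1 and 42.8 in Trib1_WT, and 41.9 and 49.3 in AAV_Cebpa and 64.3 and 67.9 in AAV_Null. It was the Cyp3a11 site with the largest Trib1_LSKO difference (-16.7). The site at +18.39 kb was called in 7 libraries, at percentiles of 56.8 and 72.5 in Trib1_LSKO, 65.5 and 53.9 in Trib1_WT, 25.6 and 41.0 in AAV_Cebpa and 32.0 in AAV_Null replicate 1. The site at +4.93 kb was gained in AAV_Cebpa, at 40.1 and 61.0. It was also called in Trib1_LSKO replicate 1 and both Trib1_WT libraries, at 57.5 to 67.8. The neighbouring site at +4.62 kb was called in AAV_Null replicate 1 alone, at 49.0. A 400 bp window joins this pair, and Cyp3a11 then gained 1 site in AAV_Cebpa, against 2 with 200 bp. The gain at +4.93 kb thus depends on the window. The site at +9.93 kb was called in Trib1_LSKO replicate 1 alone.

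Past the 3′ end of the gene the changed sites were weak. The site at +27.62 kb was gained in Trib1_LSKO, at 30.2 and 30.5, and the site at +88.14 kb at 2.84 and 10.5. The site at +45.36 kb was lost in Trib1_LSKO, with 14.7 and 20.3 in Trib1_WT. The site at +39.69 kb was gained in AAV_Cebpa, at 11.2 and 17.7. The highest percentile of these 4 sites in any library was 50.6, for the site at +45.36 kb in AAV_Null replicate 2. Further out, 3 sites at +78.81, +79.45 and +86.51 kb were called in all 8 libraries, and each had lower ranks in both AAV_Cebpa libraries (41.9 to 58.4) than in both AAV_Null libraries (61.0 to 79.9).

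Over the 10 Cyp3a11 sites called in all 8 libraries, the mean rank was 56.5 and 57.5 in AAV_Cebpa, against 78.7 and 79.4 in AAV_Null. The difference of -22.1 exceeded the spread between replicates (SD 0.661 and 0.464, n = 2 each), with an exact permutation p of 0.333. Ranks were lower in both AAV_Cebpa libraries at 9 of 10 sites (90%), where 41.1% of all sites were, and at 8 of the 9 sites with a mean rank of at least 50 in AAV_Null, where 55.8% of all such sites were. None was higher in both. In Trib1_LSKO the mean rank was 62.0 and 67.2, against 65.1 and 67.8 in Trib1_WT (difference -1.86, exact permutation p = 0.667), and it was higher by 0.782 without Trib1_LSKO replicate 1. Ranks were lower in both Trib1_LSKO libraries at 3 of 10 sites, where 31.1% of all sites were, and higher in both at 1.

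**Figure D5:**
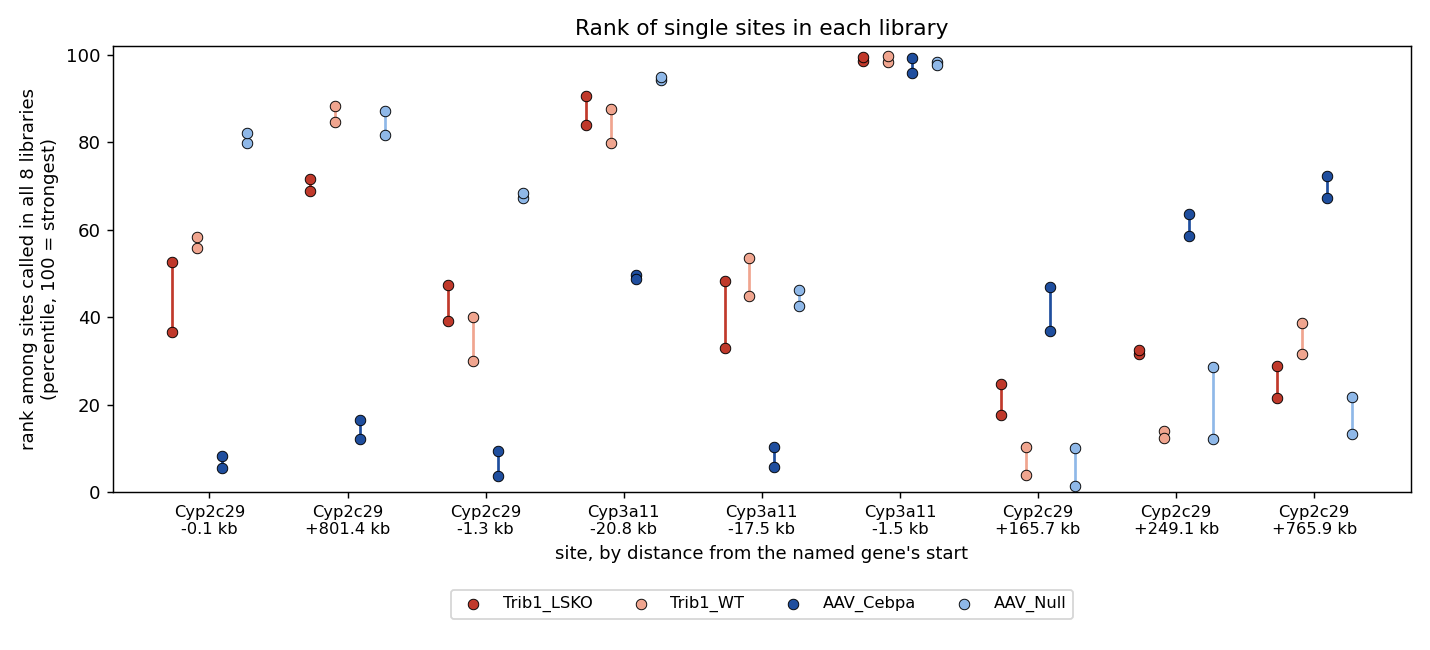
Rank of 9 sites (percentile among the sites called in all 8 libraries, 100 is the strongest) in each library, named by distance from the Cyp2c29 or Cyp3a11 start. Points are libraries and lines join the 2 of a group. All but the strongest Cyp3a11 site were picked for extreme AAV_Cebpa minus AAV_Null rank differences, so they are not typical sites. At the Cyp2c29 start AAV_Cebpa lies at 5.57 and 8.22 and AAV_Null at 79.9 and 82.0, while at -1.49 kb from the Cyp3a11 start all 8 lie between 95.8 and 99.7.

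Rank differences were wider in the AAV experiment than in the Trib1 experiment. Per Cyp2c site, Trib1_LSKO minus Trib1_WT ran between -28.5 and 18.9, and AAV_Cebpa minus AAV_Null between -74.1 and 52.1. Per Cyp3a11 site, the ranges were -16.7 to 13.6 and -45.3 to -0.382. Over all common sites the mean absolute difference was 9.50 in the Trib1 experiment and 17.6 in the AAV experiment, so the series as a whole had the same order.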

How the data were processed

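C/EBPα ChIP-seq peaks of 8 mouse liver libraries were analysed, grouped by their titles. The authors deposited 1 peak list per library, with a signal value for each peak and a fixed peak width of 200 bp. The submitters' processing notes name Bowtie, HOMER and build mm9. Nothing in the labels or lists gives versions, thresholds, input libraries or the treatment of duplicate and multiply matching reads. The deposited signal values were used only within their own list, as percentiles. They lay on whole steps, whose inverse gave relative depth. Absolute depth is unknown, so no interval for counting error is given.

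A site is a run of 200 bp windows, each centred on a peak midpoint, in which neighbours share 1 bp or more. Groups were compared within each experiment by the exact two-sided permutation test over libraries, with no replicate block. Site counts were set beside those of all sites. The members, lists, tests and alternatives were chosen with earlier results of these data known. Sites were named by rule: the 5 strongest called in all 8 libraries per region, up to 10 gained or lost per direction, the site nearest the Cyp2c29 start and those inside Cyp3a11. Other sites were named for their position or after their values were seen, and not all are marked so where they are described. Alternatives were other windows (100 and 400 bp), the strongest 50% of each list, a signal of at least 10, lists of equal length (46348), limits moved by 20 kb and each library left out. The calculation of gained and lost sites was tested on simulated data. Python 3.11.15, numpy 2.4.6, scipy 1.17.1, Biopython 1.88 and matplotlib 3.10.9 were used.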

Additional observations from a re-analysis of the deposited data

How the results depend on the processing

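Of 264 recomputed values, 5 reversed direction, 43 moved and 216 did neither. Differences between groups were marked only where the sign reversed, so the 216 include differences whose size changed. The Cyp2c density difference of AAV_Cebpa minus AAV_Null went from -0.0431 to -1.98 per 100 kb with lists of equal length. The Cyp2c rank difference of Trib1_LSKO minus Trib1_WT went from -5.79 to -1.40 without Trib1_LSKO replicate 1. Neither was marked. The cause of a move was not tested, except that shorter lists and fewer libraries leave fewer or more sites by construction. Shares of all sites are given only for the main setting, so site counts under other settings are no result about the loci.

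Lists cut to equal length gave 5 gained and 17 lost Cyp2c sites in AAV_Cebpa, 2 lost Cyp2c sites in Trib1_LSKO, 1 gained Cyp3a11 site in each comparison and 1 lost Cyp3a11 site in AAV_Cebpa. Cyp2c sites with lower ranks were then 9 (AAV_Cebpa) and 8 (Trib1_LSKO), and the AAV_Cebpa minus AAV_Null rank difference was -8.77. The strongest 50% of each list gave 5 gained Cyp2c sites in AAV_Cebpa and 2 gained and 3 lost in Trib1_LSKO. At Cyp3a11 they gave 0 gained in either comparison, 0 lost in Trib1_LSKO and 2 lost in AAV_Cebpa, with 7 Cyp2c sites in all 8 libraries, 6 (AAV_Cebpa) and 3 (Trib1_LSKO) of them with lower ranks, and a Cyp2c rank difference of -28.6 and -11.2. The Cyp3a11 density difference of AAV_Cebpa minus AAV_Null reversed to -1.56 per 100 kb under both settings. A signal of at least 10 gave 2 gained and 3 lost Cyp2c sites in Trib1_LSKO, 1 gained Cyp3a11 site in each comparison, 0 lost Cyp3a11 sites in Trib1_LSKO and 1 in AAV_Cebpa, and 15 Cyp2c sites in all 8 libraries, with 10 (AAV_Cebpa) and 8 (Trib1_LSKO) at lower ranks. A 400 bp window gave 1 gained Cyp3a11 site in AAV_Cebpa.

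Leaving out each library in turn gave 11 to 21 gained and 10 to 21 lost Cyp2c sites in AAV_Cebpa, and 1 to 11 gained and 6 to 12 lost Cyp2c sites in Trib1_LSKO. At Cyp3a11 it gave 2 to 4 gained and 0 to 3 lost sites in AAV_Cebpa, and 1 to 2 lost sites in Trib1_LSKO, with 3 to 6 sites of lower rank in Trib1_LSKO. The Cyp2c density difference of AAV_Cebpa minus AAV_Null ran between -0.690 and 0.603 per 100 kb, reversing to 0.560 without AAV_Cebpa replicate 1 and to 0.603 without AAV_Null replicate 2. The Cyp3a11 rank difference of Trib1_LSKO minus Trib1_WT ran between -4.40 and 0.782, reversing without Trib1_LSKO replicate 1. The AAV_Cebpa minus AAV_Null rank differences ran between -15.9 and -10.3 at Cyp2c and between -23.2 and -20.2 at Cyp3a11.

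With replicate numbers as a block, the differences were the same and the smallest exact p is 0.5. The rank difference at Cyp2c was -14.2 (exact permutation p = 0.5) for AAV_Cebpa and -5.79 (exact permutation p = 0.5) for Trib1_LSKO. Deviations of same-numbered libraries correlated over sites at 0.141 (Trib1 experiment) and -0.0662 (AAV experiment). With 2 libraries a group, these values cannot tell whether the numbers pair the libraries.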

Other observations

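Strong C/EBPα sites also stood just outside the Cyp2c limits. Within 40 kb past the distal limit, 8 sites were called, of which 4 were called in all 8 libraries. The strongest of them, at chr19:40305926-40306146, had a mean within-list percentile of 98.5 over the libraries. Within 40 kb before the Cyp2c region and on either side of the Cyp3a11 region, 0 sites were called in all 8 libraries, of 4, 1 and 7 sites.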
